A study of Mus musculus with 2 samples.

Results

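The gap junction and intercalated disc genes Gja1, Gja5, Gjc1, Dsp, Pkp2, Dsg2, Jup, Cdh2 and Vcl were examined for TBX5 binding in the adult mouse ventricle. Their sites were the TBX5 peaks whose summit lay in a set window around each gene on the mouse build mm9. The 9 windows held 22 of the 8849 peaks in the list. The windows were taken as given and were not checked against an mm9 gene annotation, so the position of a site relative to an exon, an intron or a start site is not given.

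The chromatin came from cardiac ventricles of wild-type C57BL/6 mice at 15 weeks of age that received no treatment. It was fixed with 2% formaldehyde, sonicated and immunoprecipitated with an antibody against TBX5, or with rabbit IgG as the control, and sequenced. The design text gives 2 biological replicates per antibody, but the values used here are 1 merged list for TBX5, so no spread between replicates was available and no test between conditions could be made. The IgG library itself was not analysed here. The whole ventricle holds several cell types, and which of them carried a site cannot be told apart.

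TBX5 is a T-box transcription factor that binds short DNA elements and is needed for septation of the heart and for its conduction system. Connexins form the channels of gap junctions, through which current passes from one cardiomyocyte to the next. At the intercalated disc these channels lie beside desmosomes, which anchor intermediate filaments, and adherens junctions, which anchor actin. Loss of desmosomal proteins is a known cause of arrhythmogenic cardiomyopathy. In the mouse, Gja5 is a well known target of TBX5, which makes it a natural reference for the other loci.

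Of the 9 genes, 5 had an entry in the RefSeq promoter table (build GRCm38.p6): Gja1, Gja5, Dsp, Jup and Vcl. Gjc1, Pkp2, Dsg2 and Cdh2 were not matched. The 250 bases before the start were searched on both strands for the letters AGGTGT, the core of the T-box half-site, and for the longer AGGTGTGA, which contains it. AGGTGT was found in 2 of the 5 promoters, Dsp and Jup, and in 11.8% of all 32851 promoters of the same length. AGGTGTGA was in none of the 5 and in 1.12% of all. The promoters with the match and that of Gja5, the locus of the strongest site, are shown 5′ to 3′ on the gene's strand, with AGGTGT in capitals.
Dsp promoter: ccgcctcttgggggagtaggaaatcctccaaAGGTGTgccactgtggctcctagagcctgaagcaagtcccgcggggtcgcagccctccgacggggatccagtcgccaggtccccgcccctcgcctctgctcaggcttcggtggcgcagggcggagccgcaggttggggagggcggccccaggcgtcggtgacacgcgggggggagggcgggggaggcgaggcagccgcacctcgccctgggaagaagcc
Jup promoter: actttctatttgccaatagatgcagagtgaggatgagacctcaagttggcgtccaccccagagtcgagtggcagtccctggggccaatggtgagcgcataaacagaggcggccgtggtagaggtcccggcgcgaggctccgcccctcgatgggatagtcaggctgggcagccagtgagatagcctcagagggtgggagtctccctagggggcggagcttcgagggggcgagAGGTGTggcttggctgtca
Gja5 promoter: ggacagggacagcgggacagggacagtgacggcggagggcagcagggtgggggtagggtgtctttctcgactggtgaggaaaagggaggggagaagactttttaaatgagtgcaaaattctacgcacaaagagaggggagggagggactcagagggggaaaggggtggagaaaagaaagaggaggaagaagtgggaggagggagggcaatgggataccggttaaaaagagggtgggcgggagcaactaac
On GRCm38.p6 they lie at chr13:38151044-38151293 (plus strand), chr11:100397791-100398040 (minus strand) and chr3:97032152-97032401 (plus strand). The match began 219 bases before the start in Dsp and 19 bases before it in Jup. A match is a description of letters and not a bound site. These positions are on another build than the peaks, so no TBX5 site was placed on a promoter.

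TBX5 sites lay in 8 of the 9 windows. Of tiles of the same width laid over the autosomes, 54.5% (Cdh2 width) to 76.3% (Gjc1 width) held no peak. The windows were chosen with earlier results of these data known, so this contrast is not evidence of enrichment. The loci differed widely in the fold of their strongest site, but the intervals of their site densities overlapped. Dsp and Cdh2 had 4 sites each, Gja5, Pkp2, Dsg2 and Vcl had 3 each, Gjc1 and Jup had 1 each, and Gja1 had none. With peaks kept only at a −log10 q of 5 or more, Cdh2 had 2 sites and Jup had 0, the other counts did not change, and 7 windows held a site. Gjc1 had 0 sites with the windows narrowed by 20 kb on each side and 4 with them widened by 50 kb. The strongest site of each locus ran from a fold of 22.1 at Gja5 to 3.08 at Jup. The fold is the authors' value for each peak, the TBX5 pileup at the summit over the local level of a control library. The number of TBX5 fragments at each summit and that control level were solved from the fold and −log10 p that the authors deposited. Intervals are exact 95% Poisson intervals on these fragments with the control level held fixed. They reflect counting error alone, and treat reads as independent molecules, which cannot be known without molecular identifiers.

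**Figure D1:**
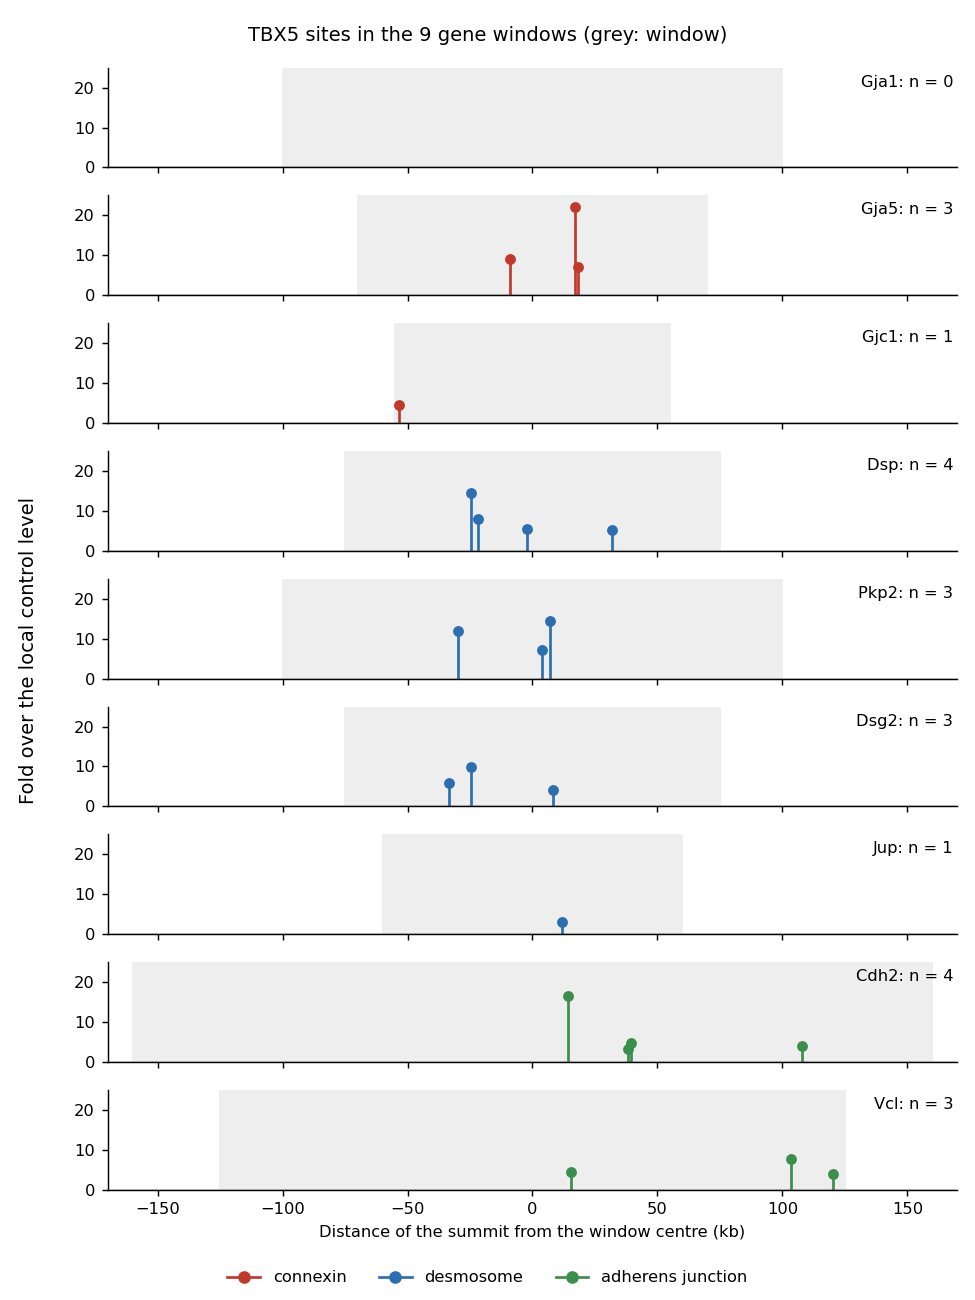
Fold over the local control level (vertical axis) against the distance of each TBX5 summit from the centre of its window in kb (horizontal axis), with 1 panel per locus, the window in grey and 1 stem per site. Gja1 has no stem, and the Gja5, Dsp, Pkp2 and Cdh2 panels hold the sites with a fold of 10 or more.

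Among the connexins, the TBX5 signal was concentrated at Gja5. Gja5 encodes connexin-40, the fast-conducting connexin of the atria and the ventricular conduction system. Its 3 sites lay within 27.0 kb in a 140 kb window (chromosome 3, 96.78 to 96.92 Mb). The strongest, at chr3:96866570-96867288, held 167 TBX5 fragments (143 to 194) with the control at 5, for a fold of 22.1 (18.9 to 25.6). It was 719 bp wide. In the list of 8849 peaks it was 39th by fragments, 43rd by −log10 q, 46th by width and 133rd by fold. A fold this high or higher was found at 1.51% of all peaks.

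The other sites at Gja5 were weaker. The site at chr3:96868107-96868246 began 818 bp after the strongest one ended, and held 26 fragments (16.98 to 38.1) at a fold of 7.15 (4.79 to 10.3). The site at chr3:96841082-96841274, 25.9 kb from the strongest summit, held 45 fragments (32.8 to 60.2) at a fold of 9.10 (6.70 to 12.1). The intervals of these folds overlapped each other and both lay below that of the strongest site. All 3 sites stood above the median fold of the whole list, 5.52. The caller's numbering skips 1 number after the last Gja5 site, somewhere in a stretch of 198.9 kb of which 51.8 kb lie inside the window. That peak was not analysed here, so the Gja5 window held 3 or 4 called peaks.

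Gja1 encodes connexin-43, the main gap junction protein of the working ventricular myocardium, and no TBX5 peak was called in its 200 kb window (chromosome 10, 56 to 56.2 Mb). The exact 95% Poisson interval of a count of 0, used for the density of every window, reaches up to 1.84 peaks per 100 kb here. The window lay in a stretch of 2.80 Mb without a peak in the list, from 53758945 to 56556025. Of the 8720 stretches between neighbouring autosomal peaks, 1.31% were this long or longer, and the median stretch was 72.8 kb. Each stretch counts once here, whatever its length. A window falls more readily in a long stretch, so this share understates how often a window would lie in one. No caller number was skipped across this stretch. An empty window is the common case, since 64.9% of autosomal tiles of 200 kb held no peak.

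The nearest peak to the right of the Gja1 window lay 356 kb beyond its edge and was weak, with 14 fragments (7.65 to 23.5) and a fold of 5.52. Farther on, 501 kb beyond the edge, a site at chr10:56700504-56701066 held 136 fragments (114 to 161) at a fold of 27.0, a higher fold than at any site in the 9 windows, though on fewer fragments than the strongest Gja5 site. At 635 kb a site at chr10:56834493-56835118 had a fold of 26.1 on 71 fragments (55.5 to 89.6). In RefSeq the genes next to Gja1 are Msl3l2 and Hsf2. Which gene these distant sites belong to was not tested. To the left, the nearest peak was 2241 kb from the window.

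Gjc1 encodes connexin-45, which is found in the sinoatrial and atrioventricular nodes. Its 110 kb window (chromosome 11, 102.62 to 102.73 Mb) held 1 site, at chr11:102621424-102621591, with 28 fragments (18.6 to 40.5) over a control level of 4 and a fold of 4.60 (3.13 to 6.57). This site entered by 1.48 kb, since its summit was that close to the left edge of the window. Just outside, 10.2 and 17.02 kb to the left of the window, sites of 11 and 16 fragments had folds of 4.39 and 4.53, and 12.4 kb to the right 42 fragments stood over a control level of 11 (fold 2.84). All 4 of these peaks were below the median fold of the list, and 3 of them lay outside the window. In RefSeq the genes beside Gjc1 are Adam11 and Higd1b.

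The desmosomal genes carried 11 sites in 4 windows. Dsp encodes desmoplakin, which links the desmosomal plaque to intermediate filaments. Its 150 kb window (chromosome 13, 38.19 to 38.34 Mb) held 4 sites. The strongest, at chr13:38240189-38240621, held 72 fragments (56.3 to 90.7) with the control at 3, for a fold of 14.4 (11.3 to 18.1). A second site, at chr13:38242902-38243299, lay 2.57 kb from it by summits, with 30 fragments (20.2 to 42.8) and a fold of 7.87 (5.41 to 11.1). The 2 sites farther along, at chr13:38262608-38262950 and chr13:38296634-38296794, had 40 and 41 fragments and folds of 5.41 and 5.12, just under the median of the list. Folds at Dsp therefore fell from the first site to the last along the chromosome, while the fragments of the last 3 had overlapping intervals and their control levels were 2.13, 5 and 5.5.

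Pkp2 encodes plakophilin-2, the plaque protein most often mutated in human arrhythmogenic cardiomyopathy. Its 200 kb window (chromosome 16, 16.15 to 16.35 Mb) held 3 sites, all above the median fold of the list. The site at chr16:16256817-16257088 had 54 fragments (40.6 to 70.5) with the control at 2, for a fold of 14.5 (10.97 to 18.8). The site at chr16:16220032-16220266, 36.8 kb away by summits, had 44 fragments (32.0 to 59.1) and a fold of 11.9 (8.72 to 15.8). Between them, 3.03 kb from the strongest summit, the site at chr16:16253852-16254164 had 35 fragments (24.4 to 48.7) and a fold of 7.13 (5.04 to 9.82). Pkp2 was the only one of the 9 windows with more than 1 site at a fold of 10 or more. The intervals of these 2 folds overlapped.

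Dsg2 encodes desmoglein-2, the desmoglein of cardiomyocyte desmosomes. In its 150 kb window (chromosome 18, 20.67 to 20.82 Mb) the strongest of 3 sites, at chr18:20720270-20720547, had 49 fragments (36.3 to 64.8) over a control level of 3 and a fold of 9.89 (7.38 to 12.99). It was just under the fold of 10 used here to count strong sites. The site at chr18:20711330-20711495, 9.004 kb away, had 28 fragments and a fold of 5.76 (3.91 to 8.21), and the site at chr18:20752810-20753150 had 31 fragments and a fold of 4.23 (2.93 to 5.94). A further site lay 9.31 kb beyond the right edge, with 23 fragments and a fold of 8.63. In RefSeq, Dsg2 lies between Dsg3, a desmoglein of stratified epithelia, and Ttr, which encodes transthyretin.

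Jup encodes plakoglobin, which takes part in desmosomes and adherens junctions alike. Its 120 kb window (chromosome 11, 100.18 to 100.3 Mb) held the weakest of the strongest sites, at chr11:100251590-100251767, with a fold of 3.08 (2.17 to 4.26). Its −log10 q was 3.67, so that Jup had no site at the stricter threshold of 5. A fold this high or higher was found at 92.6% of all peaks. The closest solution gave 34 fragments (23.5 to 47.5) over a control level of 8, and a second solution within the tolerance gave 32 fragments over 7.49. The weakest Pkp2 site had a similar 35 fragments over a control level of 3. The low fold at Jup went with the highest control level of the 22 sites.

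The adherens junction genes carried 7 sites in 2 windows. Cdh2 encodes N-cadherin, the classical cadherin of the intercalated disc. In its 320 kb window (chromosome 18, 16.7 to 17.02 Mb) 1 site stood far above the others, at chr18:16873907-16874346, with 104 fragments (85.0 to 126) over a control level of 4 and a fold of 16.6 (13.6 to 20.02). It was second among the 22 sites both by fold and by fragments. The site at chr18:16897986-16898236 had a fold of 3.17 on 31 fragments over a control level of 7. The site at chr18:16899283-16899595 had a fold of 4.77 on 23 fragments, and that at chr18:16967909-16968045 a fold of 4.004 on 14 fragments, the fewest of the 22. The second and the last of these 4 sites had a −log10 q of 3.66 and 2.66 and were lost at the threshold of 5. The strongest Cdh2 site had 5.22-fold the fold of the next one along the chromosome, which was the weakest of the 4 by fold.

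The Cdh2 sites stood alone in their region. No peak was called in the 500 kb on either side of the window. The stretch before the first site ran for 1.31 Mb (4.16% of autosomal stretches were this long or longer) and that after the last site for 3.24 Mb (0.986%). Both stretches cross an edge of the window, and these shares again count each stretch once, whatever its length. No caller number was skipped in either stretch. Most of the right-hand stretch lies beyond the window, and the RefSeq genes next to Cdh2 are Chst9 and Dsc3, a desmocollin.

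Vcl encodes vinculin, which ties cadherin and integrin adhesions to actin. Its 250 kb window (chromosome 14, 21.65 to 21.9 Mb) held 3 sites and none with a fold of 10 or more. The highest fold, 7.69 (4.88 to 11.6), came from 20 fragments (12.2 to 30.9) at chr14:21878239-21878498, the only one of the 22 sites whose control level was the genome background of 1.18. The most fragments, 45 (32.8 to 60.2), lay at chr14:21790236-21790464 with the control at 7, for a fold of 4.55 (3.35 to 6.05). The third site, at chr14:21895036-21895271, had 37 fragments with the control at 6.5, for a fold of 4.01. The third site and the site of highest fold lay 4.88 and 21.7 kb from the right edge of the window. With the windows narrowed by 20 kb on each side, Vcl had 2 sites. Plau and Ap3m1 are the genes beside Vcl in RefSeq, and which gene a site belongs to was not tested. Vcl was the only locus where the site of highest fold was not the site with most fragments.

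**Figure D2:**
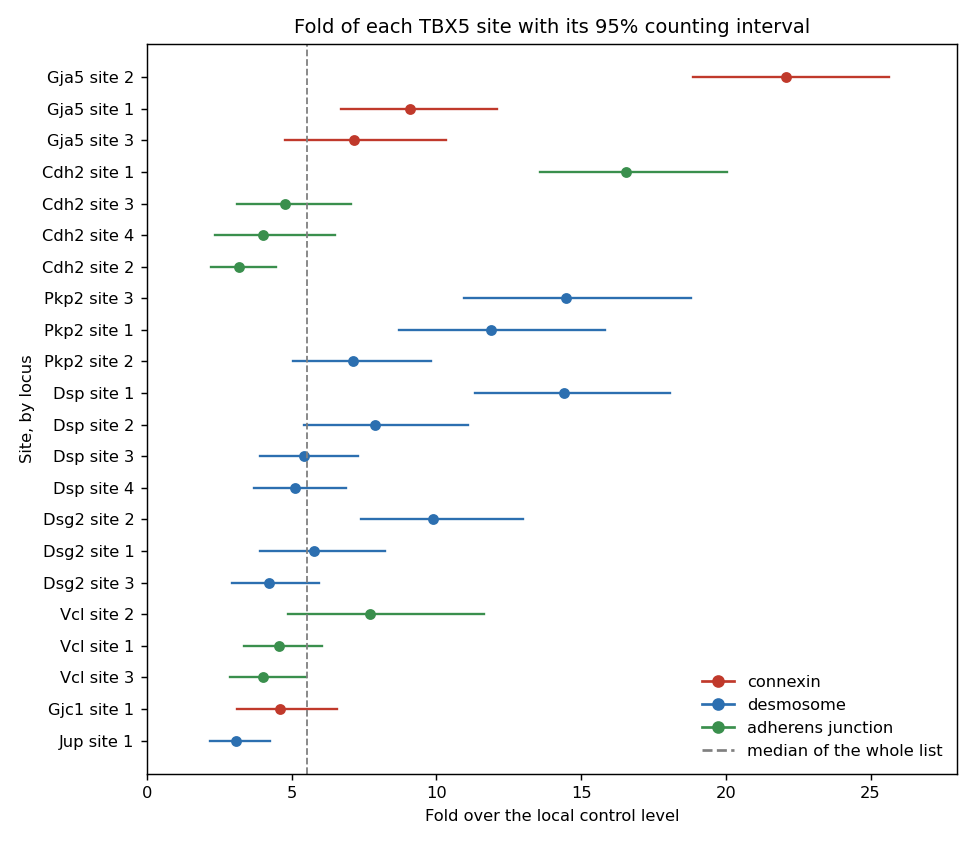
Fold over the local control level of each of the 22 TBX5 sites (points, horizontal axis) with its 95% counting interval (bars), sites listed by locus in order of the strongest site and numbered along the chromosome. The dashed line is the median fold of the whole list, 5.52. The strongest Gja5 site lies at 22.1 and the Jup site at 3.08.

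Ordered by their strongest site, the loci were Gja5 (fold 22.1), Cdh2 (16.6), Pkp2 (14.5), Dsp (14.4), Dsg2 (9.89), Vcl (7.69), Gjc1 (4.60) and Jup (3.08). All 7 pairs next to each other in this order had overlapping counting intervals. Overlap is a description and no test was made, so the order between neighbours is taken as not settled. Of all 28 pairs, 17 did not overlap. The intervals hold the control level fixed, so a gap between them does not settle an order by itself. The strongest Gja5 site lay above the strongest sites of Pkp2, Dsp, Dsg2, Vcl, Gjc1 and Jup by fold, although the gap to the Pkp2 interval was narrow (18.9 against 18.8). By TBX5 fragments the Gja5 site also lay above the Cdh2 site, at 1.61-fold its number, with intervals that did not overlap. The fold intervals of Cdh2, Pkp2 and Dsp all overlapped each other.

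As a set, the 22 sites were not clearly separated from the whole list in strength. Of the 22 sites, 5 had a fold of at least 10 (22.7%, 95% Wilson interval 10.1 to 43.4), against 13.7% of all peaks. They were 1 at Gja5, 1 at Dsp, 2 at Pkp2 and 1 at Cdh2. At least 60 TBX5 fragments were found at 3 sites (13.6%, 4.75 to 33.3), against 13.4% of all peaks, and these were the strongest sites of Gja5, Cdh2 and Dsp. A −log10 q of 5 or more was found at 19 sites (86.4%, 66.7 to 95.3), against 71.7% of all peaks. The median −log10 q was 10.7 at the 22 sites and 8.15 in the whole list. The median fold was 6.44 at the 22 sites and 5.52 in the whole list, and the median number of fragments was 36 and 32. The median width was 255.5 bp against 202 bp. At or above the median of the list were 12 of the 22 sites by fold, 13 by fragments and 15 by width. A median splits the list about evenly, which is the reference for these counts. The shares of the list lie inside the members' intervals, which treat sites as independent. These intervals are wide, so this does not show that the 22 sites equal the list in strength.

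A control level of 3 or more was found at 16 sites (72.7%, 51.8 to 86.8), against 64.4% of all peaks. The levels ran from 1.18 to 8 with a median of 3, against 3.5 in the whole list. The fold has this level in its denominator. Sites with similar fragments thus differed in fold, as at Gja5 and Vcl, where 45 fragments gave a fold of 9.10 over a control level of 3 and 4.55 over 7. The sources used here do not say which library served as the control.

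**Figure D3:**
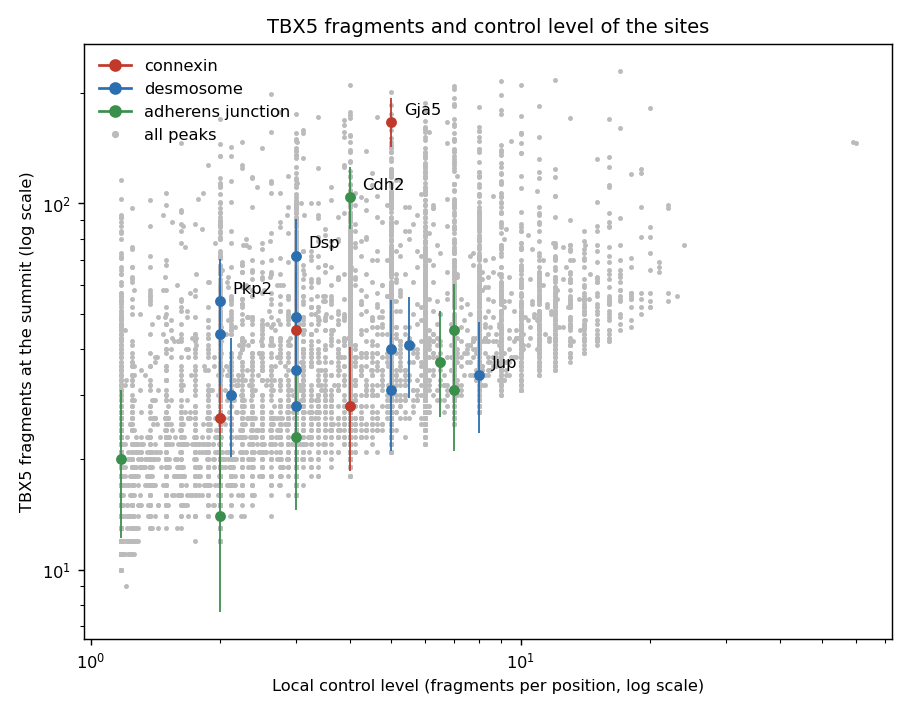
TBX5 fragments at the summit (vertical axis, log scale) against the local control level in fragments per position (horizontal axis, log scale) for the 22 sites (coloured points with 95% Poisson bars) and all peaks (grey). The Gja5 site (167 fragments over 5) and the Cdh2 site (104 over 4) stand above the other members, and the Jup site (34 over 8) lies near the lower border of the list.

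Some sites came in close pairs. Another peak within 0.0125 Mb, edge to edge, was found for 11 of the 22 sites (50%, 30.7 to 69.3), against 36.5% of all peaks. Sites of a pair are each other's neighbour, so this interval, which treats sites as independent, is too narrow. Of the 14 pairs of consecutive sites within a window, 4 had summits under 5 kb apart. They were 1.13 kb apart at Gja5, 1.44 kb at Cdh2, 2.57 kb at Dsp and 3.03 kb at Pkp2. The same share over all peaks was not computed, so whether this is more than in the list is not known. At Gja5, Dsp and Pkp2 the pair included the strongest site of the locus, whereas at Cdh2 it joined 2 weak sites 23.9 kb or more from the strongest summit. Close peaks may be parts of 1 enriched region, which the list does not resolve.

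The windows differ in width, so sites were also counted per 100 kb. The density was highest at Dsp, 2.67 per 100 kb (95% Poisson interval 0.727 to 6.83), followed by Gja5 at 2.14 (0.442 to 6.26), Dsg2 at 2 (0.412 to 5.84), Pkp2 at 1.5 (0.309 to 4.38), Cdh2 at 1.25 (0.341 to 3.20), Vcl at 1.2 (0.247 to 3.51), Gjc1 at 0.909 (0.0230 to 5.07) and Jup at 0.833 (0.0211 to 4.64). These intervals all overlapped, so the loci could not be ordered by density at these numbers of sites. The 9 windows together held 1.34 peaks per 100 kb (0.841 to 2.03), against 0.368 over the autosomes. The windows were placed on genes and the autosomes include long stretches without genes, so these densities are of different kinds of sequence and no test was made. The windows were also chosen with earlier results of these data known, so the higher density is not evidence of enrichment.

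Tiles of the same width laid over chromosomes 1 to 19 show how common each count was. Unlike the tiles, the windows were chosen with earlier results of these data known. The shares below and the comparison with the flanks are therefore descriptions and not evidence of enrichment. At least as many peaks as at Dsp were found in 3.08% of tiles, as at Gja5 in 5.63%, as at Dsg2 in 6.2%, as at Pkp2 in 9.05%, as at Cdh2 in 10.6% and as at Vcl in 12.6%. A single site, as at Gjc1 and Jup, was matched or passed by 23.7% and 25.2% of tiles. In the 500 kb on each side of the windows, the density was lower than in the window at 7 loci and higher at Gja1 and Gjc1. At Gjc1 the flanks held 16 peaks, 1.60 per 100 kb (0.915 to 2.60), and at Gja5 they held 13, 1.3 per 100 kb (0.692 to 2.22). The intervals of window and flank overlapped at all 9 loci.

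**Figure D4:**
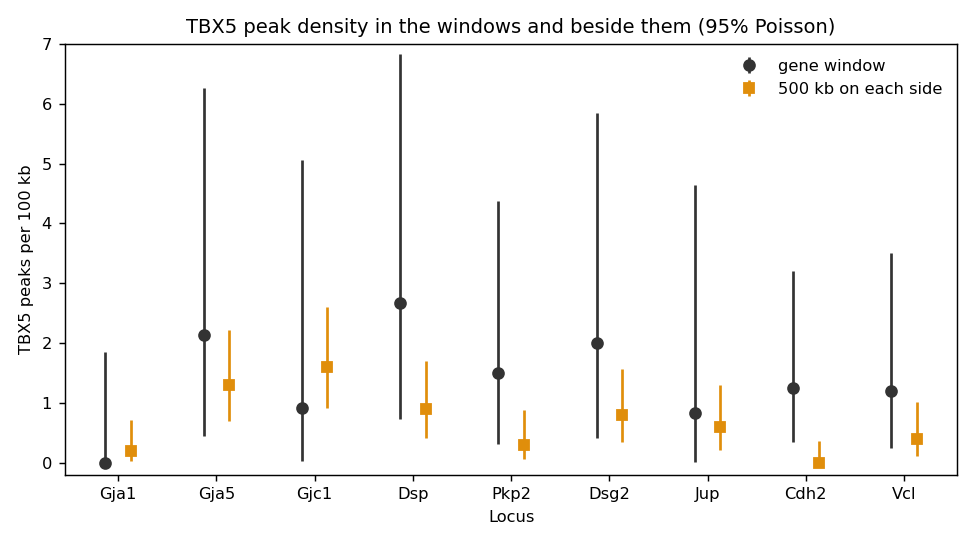
TBX5 peaks per 100 kb (vertical axis) in each gene window (circles) and in the 500 kb on each side of it (squares), with 95% Poisson intervals as bars. Dsp has the highest window density, 2.67, Gja1 has 0 in its window, and Cdh2 has 0 in its flanks.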

How the data were processed

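ChIP-seq reads were processed by the authors. They used MACS2 (2.1.1.20160309.0) on mm9, with Bowtie2 (2.2.6.2) and FastQC (0.10.0) also listed, per the submitters' processing notes. How the caller was set, which control it took and how replicates and duplicates were treated is not given in the sources used here. Each peak of the deposited list has a score, a −log10 p, a −log10 q and a fold, which is a ratio. The score was the whole part of 10 times −log10 q in 8846 of 8849 peaks. The lowest deposited −log10 q was 1.30. Caller numbers ran to 8922, and the 73 absent ones were not analysed here. Coordinates are on mm9 and counted from 1.

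MACS2's fold is (scaled TBX5 pileup + 1) / (control level + 1) and its p is the Poisson tail of that pileup. A scale of 0.787 and a background of 1.18 were estimated from the list, and only whole numbers of TBX5 fragments were searched. Over all 8849 peaks, the largest difference of the closest solution from −log10 p was 0.00016 (tolerance 0.005). For 240 peaks a second solution lay within the tolerance and the closer was taken. A control level within 0.002 of 3 counted as 3. On data simulated with the same formulas both numbers came back right for 100% of 3712 and 3676 peaks. This checks the solving and not whether the caller used these formulas. Read totals were not used, so depth is given as fragments per site.

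The 9 genes, their windows and the settings were chosen with earlier results of these data known. Named in full were the strongest site of each locus, sites with a fold of 10 or more and sites with 60 or more fragments; the remaining sites were few and are also given. Neighbours lay within 0.0125 Mb, edge to edge. Tiles ran between the outermost peaks of chromosomes 1 to 19. RefSeq (GRCm38.p6) gave only promoter sequences with their positions and gene order. Planned comparisons with gene structure and with other intercalated disc genes need mm9 annotation and were not run. Scripts ran in Python 3.11.15 with scipy 1.17.1, pandas 2.3.3, numpy 2.4.6 and, for plots, matplotlib 3.10.9.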

Additional observations from a re-analysis of the deposited data

How the results depend on the processing

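The alternatives were a −log10 q of 5 or more, windows widened by 50 kb or narrowed by 20 kb on each side, overlap of any base in place of the summit, peaks within 1 kb merged, a neighbour distance of 5 kb, single solutions only, and ranking by −log10 q or fragments. Counting the skipped number at Gja5 (4 sites in place of 3) was added after the data were seen. The 22 sites became 19 to 28, and all 33 summary values stayed within a factor of 1.5 (counts) or within the 95% interval of the main value (shares and medians). Of 84 values per locus 6 moved. At the stricter threshold Jup had 0 sites and Cdh2 had 2. Gjc1 had 4 sites in the widened window and 0 in the narrowed one. The leading Vcl site had a fold of 4.55 when ranked by −log10 q or by fragments. These moves follow from sites near the threshold or the window's edge, or from the control level in the fold. The intervals are wide with 22 sites, so staying within them is a weak limit. Some of the 84 values could not move, such as the count of 0 at Gja1 at the stricter threshold. Re-ranking could likewise not change a locus with 1 site. The strongest fold of Jup at the stricter threshold and of Gjc1 in the narrowed window no longer existed, and these were not counted among the 84. The number that moved therefore overstates how stable the values per locus are. No replicate could be left out, since replicates were merged. No paired analysis was possible because the values come from 1 list without a test.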
